A study of Mus musculus with 24 samples.

Results

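The 10 genes described here belong to the natural killer (NK) cell program. Ncr1, Klrk1, Klrd1, Klrb1c and Klrb1b encode receptors, Eomes a transcription factor, Prf1, Gzma and Gzmb the contents of cytotoxic granules, and Nkg7 a protein of the granule membrane. They were picked by name, and each was found by its Ensembl identifier, as 10 of the 54532 rows of the tumor table and 10 of the 35275 rows of the cultured-cell table. NK cells are lymphocytes that kill without a rearranged antigen receptor. They read a balance of activating receptors (NKp46, encoded by Ncr1, NKG2D, encoded by Klrk1, and NK1.1, encoded by Klrb1c) and inhibitory ones (CD94/NKG2A, which needs Klrd1, and NKR-P1B, encoded by Klrb1b). A triggered NK cell empties granules in which perforin (Prf1) opens the target membrane and granzymes (Gzma, Gzmb) enter to start cell death. CD8+ T cells load the same granules, so in bulk tissue Prf1, Gzma, Gzmb, Nkg7, Klrk1, Klrd1 and Eomes do not name an NK cell on their own, whereas Ncr1 is largely confined to NK cells and related innate lymphocytes.

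Bulk RNA-seq was performed on tumors of D2A1 and D2.1 cells, mammary tumor lines derived from hyperplastic alveolar nodules of BALB/c mice. D2A1 is the proliferative line and D2.1 the line that lies dormant before it grows out. The mammary fat pads of female mice received 1000000 cells each, at an age of 8 to 12 weeks. The hosts were either BALB/c, with an intact immune system, or SCID-beige, whose Prkdc scid mutation removes T and B cells and whose Lyst bg mutation impairs NK cell granule release. Tumors were taken at about 500 cubic millimeters, and the 18 tumors were 4 of each line in BALB/c and 5 of each line in SCID-beige hosts. The days from implantation to harvest are not given for each tumor. In the paper's growth experiments D2A1 tumors reached a given size sooner than D2.1 tumors, and grew more slowly in BALB/c than in SCID-beige mice. Line, and for D2A1 also host, therefore cannot be told apart from time in the mouse. Neither mutation removes NK cells, and the tumor cells carry intact copies of both mutated genes. A further 6 libraries came from the same lines grown in culture without a host (3 each), and they served as a blank for transcripts of host cells.

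Library totals ranged from 13566949 to 18355153 counts in tumors and from 16837260 to 24818234 in cultured cells, so a floor of 3 counts lay between 0.163 and 0.221 CPM, the counts scaled to the library size, in a tumor. Floors cover counting error only. Cd3e, a subunit of the T cell receptor complex, was at 0 to 7 counts in the 10 SCID-beige tumors and at 12 to 392 counts in the 8 BALB/c tumors. In a bulk tumor, fewer cells of a type and less RNA per cell cannot be told apart, and this holds for each difference below.

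Of the 10 genes, 9 were higher in D2.1 than in D2A1 tumors, in BALB/c and in SCID-beige hosts alike, while few of them passed the test between hosts. In BALB/c mice, 9 of 10 passed the test (an adjusted p under 0.05 by the quasi-likelihood test of edgeR, Benjamini-Hochberg method) toward D2.1, against 16.8% of all genes tested, and their median difference was log2 3.70, against -0.02 over all genes. In SCID-beige mice, again 9 of 10 passed toward D2.1, against 17.2% of all genes, with a median of 4.30 against 0.02. In both hosts each library of D2.1 tumors lay above each library of D2A1 tumors for 9 of 10 genes, a separation that 16.9% of all genes showed in BALB/c and 12.6% in SCID-beige mice. Eomes was the gene that did not pass in either host. Klrb1b and Klrb1c, which are among the 9, also stood higher in D2.1 than in D2A1 cells in culture, without a host. The plot of each library shows both lines and both hosts beside the cultured cells.

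**Figure D1:**
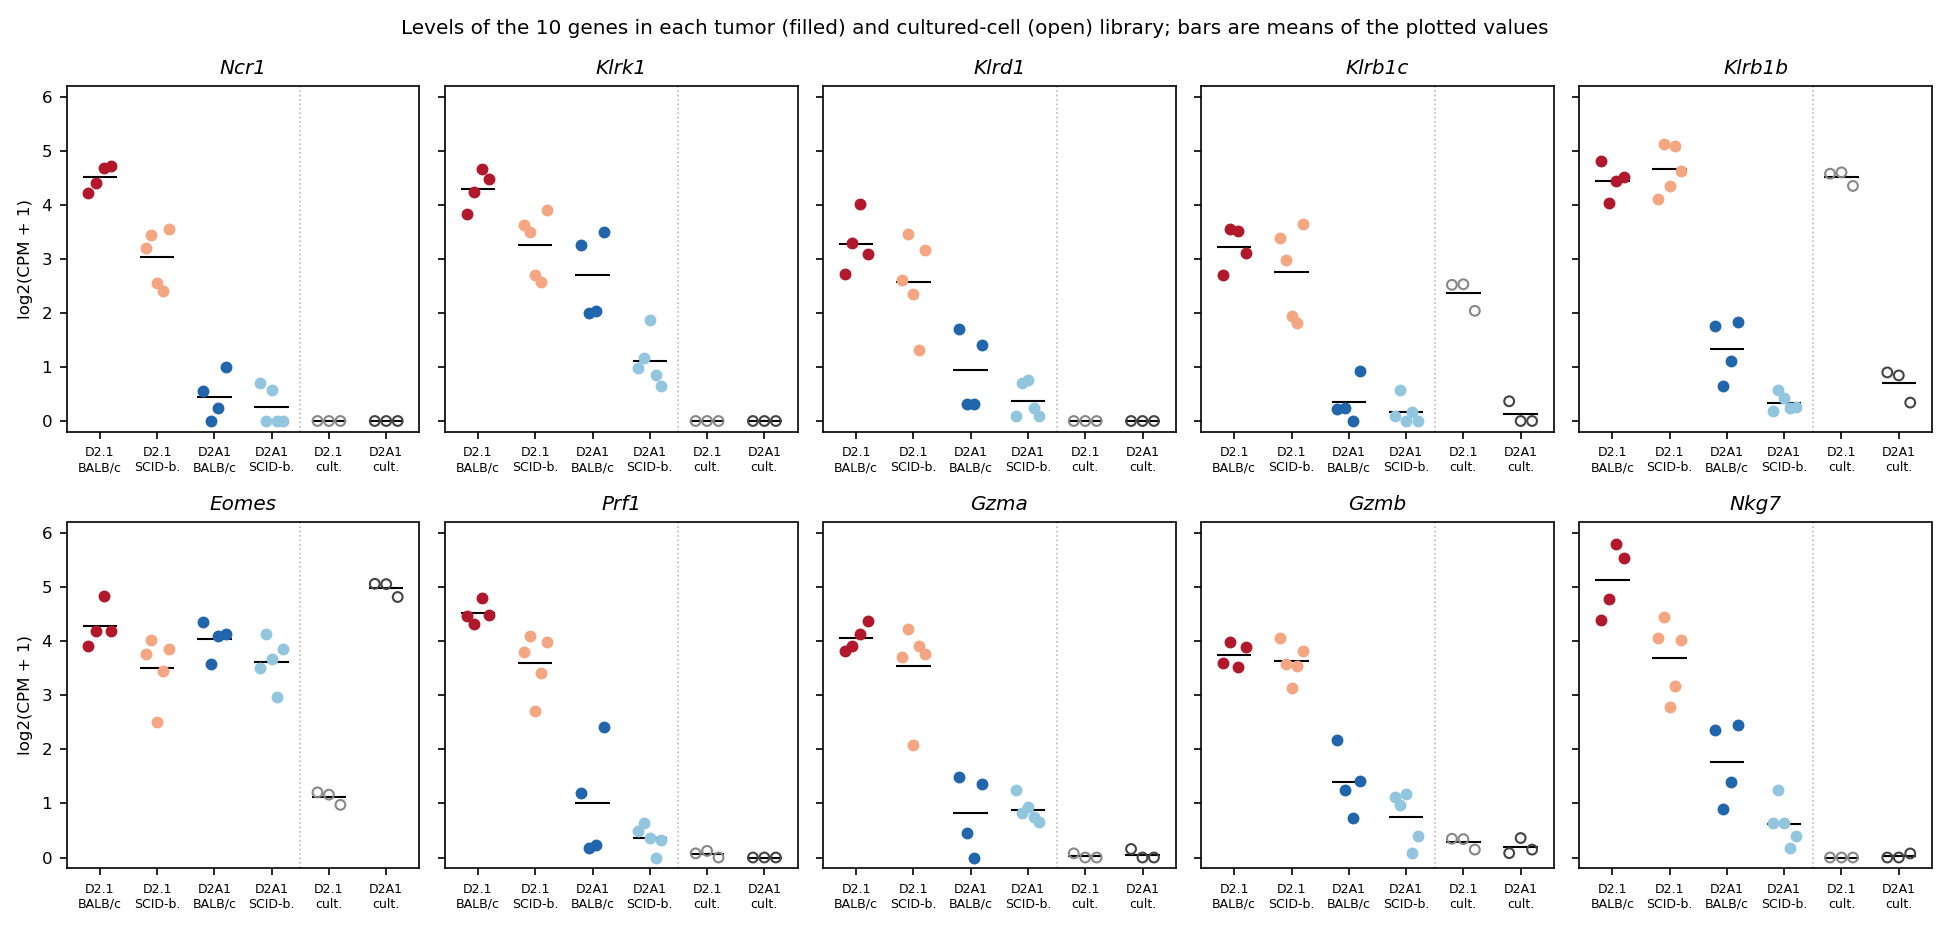
Level of each gene as log2(CPM + 1) (vertical axis) in every library of the 4 tumor groups (filled points) and the 2 cultured lines (open points), with a bar at the mean of the plotted values. Within each host, the D2.1 tumors lie above the D2A1 tumors for every gene but Eomes. Cultured D2.1 cells also hold Klrb1b, inside the CPM range of the D2.1 tumors, and Klrb1c, below every D2.1 tumor of BALB/c mice. Tumor and culture libraries were scaled separately.

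Between hosts, BALB/c over SCID-beige, 1 of 10 genes passed in D2.1 tumors, Ncr1, against 0.871% of all genes, and their median difference was log2 0.76 against -0.01 over all genes. At an unadjusted p under 0.05 (edgeR), Ncr1, Klrk1, Eomes, Prf1 and Nkg7 were higher in BALB/c hosts, and 1489 of all 14929 genes tested differed in either direction. Failing the adjusted test in 4 against 5 tumors does not show that a gene was unchanged. All 4 BALB/c libraries exceeded all 5 SCID-beige libraries for Ncr1 and Prf1, and 3.15% of all genes separated that way. In D2A1 tumors 5 of the 10 genes had too few counts to enter the test, and of the other 5 none passed by edgeR, against 0.906% of all genes. At an unadjusted p under 0.05, 2 of these 5 (Klrk1 and Nkg7) were higher in BALB/c hosts, and 1472 of all 14572 genes tested differed in either direction. DESeq2 called 3 of the members it tested, and 517 of all 18264 genes it tested. Among the tested 5, Klrk1 alone separated the hosts without overlap, as did Klrb1b among the untested, with 3.31% of all genes tested doing so. The test of whether the host effect differed between lines passed for 0 of 10 genes (edgeR) and for 0.0187% of all genes in the direction of a larger effect in D2.1. In that test, 1 of the 10 had an unadjusted p under 0.05, Klrb1b, at log2 -2.86 ± 0.57 SE (D2.1 minus D2A1, adjusted p = 0.115), and DESeq2 called it (adjusted p = 0.00132). Of all genes, 1355 of 16036 had such an unadjusted p (edgeR), and DESeq2 called 104 of 15727.

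**Figure D2:**
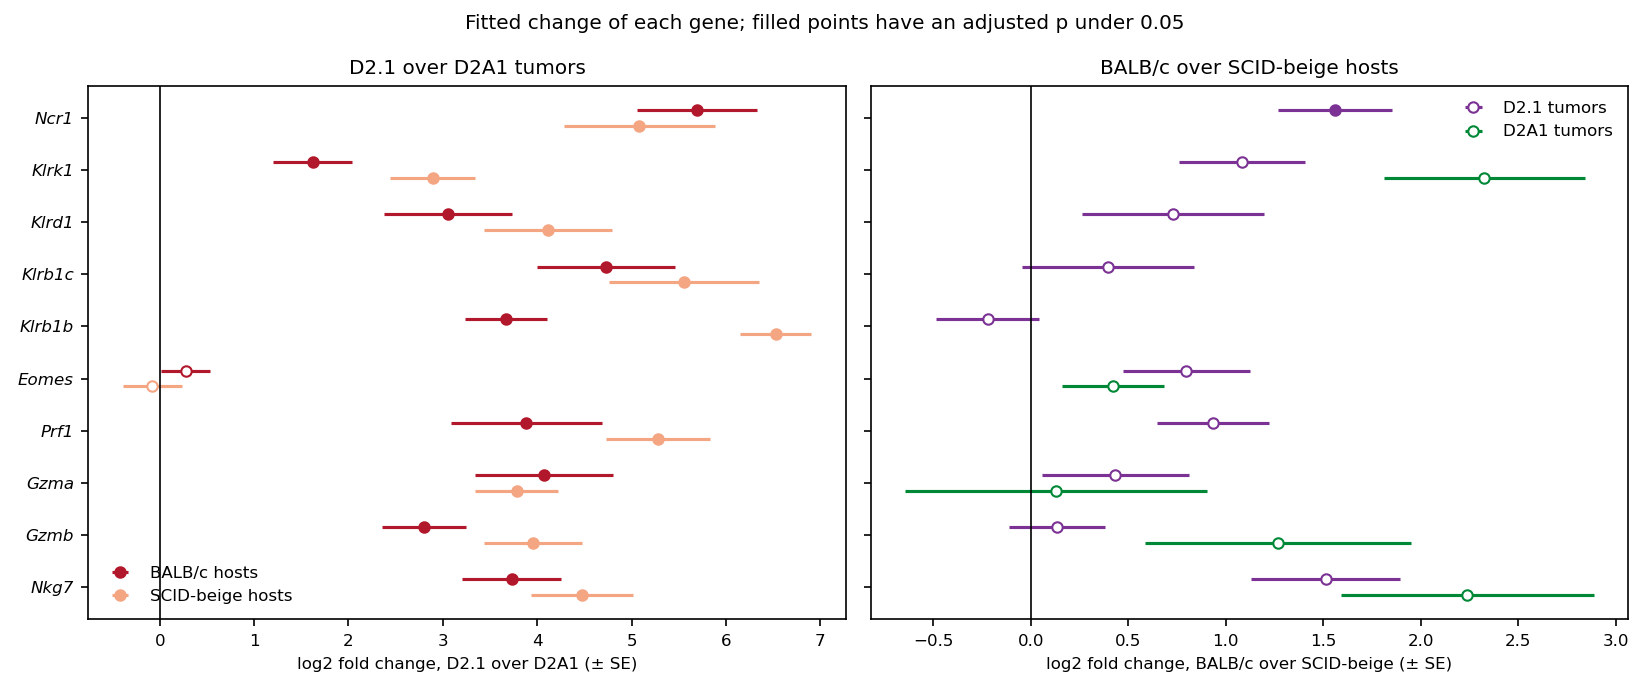
Fitted log2 fold change, with a standard error derived from the test statistic, for each gene. D2.1 over D2A1 tumors in each host (left) and BALB/c over SCID-beige hosts in each line (right). Filled points have an adjusted p under 0.05 (edgeR), and genes without a point had too few counts to be tested. The left panel is filled except for Eomes, and Ncr1 in D2.1 tumors is the filled point of the right panel.

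The cultured cells were not a blank for all 10 genes. Ncr1, Klrk1 and Klrd1 had 0 counts in all 6 cultured libraries, which allows up to 0.178 CPM in the shallowest. Prf1, Gzma and Nkg7 had at most 2 counts and Gzmb at most 6. Klrb1b was at 420, 526 and 362 counts and Klrb1c at 87, 108 and 58 counts in the 3 libraries of cultured D2.1 cells. Eomes was at 563, 570 and 512 counts in cultured D2A1 cells and at 24, 28 and 18 in cultured D2.1 cells. Ptprc, the pan-leukocyte gene for CD45, had at most 4 counts in any of these cultures, so the transcripts of these 3 genes were present without a matching leukocyte signal.

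The RefSeq sequences of GRCm38.p6 upstream of the genes are shown for 4 members that culture lacked or nearly lacked and for Klrb1b and Eomes, which it held. The 4 are the members whose windows held the RUNX letters described here. Prf1 and Nkg7, which culture nearly lacked as well, held no RUNX letters and are not shown. Each is the 250 bases before the most upstream RefSeq start, 5′ to 3′ on the gene's strand. An entry was found for 9 of the 10 genes, all but Klrd1. Capitals mark matches to 7 letters searched on both strands: TGTGGTT, a core bound by RUNX factors, ACTTCCT, a core bound by ETS factors, and TCACACC, a core bound by T-box factors such as Eomes.
Ncr1, chr7:4337465-4337714, plus strand: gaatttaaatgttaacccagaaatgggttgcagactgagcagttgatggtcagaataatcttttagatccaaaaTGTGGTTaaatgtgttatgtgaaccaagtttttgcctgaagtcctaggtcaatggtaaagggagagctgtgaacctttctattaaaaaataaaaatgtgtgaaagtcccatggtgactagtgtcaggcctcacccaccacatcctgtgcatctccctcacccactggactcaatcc
Klrk1, chr6:129623865-129624114, minus strand: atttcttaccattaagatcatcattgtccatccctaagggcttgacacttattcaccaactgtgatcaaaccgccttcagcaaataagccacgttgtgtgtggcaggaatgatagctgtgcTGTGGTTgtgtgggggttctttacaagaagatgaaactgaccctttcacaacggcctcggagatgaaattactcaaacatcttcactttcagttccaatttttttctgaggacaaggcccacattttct
Gzma, chr13:113100982-113101231, minus strand: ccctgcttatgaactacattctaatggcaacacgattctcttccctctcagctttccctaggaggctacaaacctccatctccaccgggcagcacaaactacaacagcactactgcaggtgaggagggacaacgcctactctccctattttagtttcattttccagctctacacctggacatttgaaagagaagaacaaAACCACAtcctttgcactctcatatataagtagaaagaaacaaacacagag
Gzmb, chr14:56262335-56262584, minus strand: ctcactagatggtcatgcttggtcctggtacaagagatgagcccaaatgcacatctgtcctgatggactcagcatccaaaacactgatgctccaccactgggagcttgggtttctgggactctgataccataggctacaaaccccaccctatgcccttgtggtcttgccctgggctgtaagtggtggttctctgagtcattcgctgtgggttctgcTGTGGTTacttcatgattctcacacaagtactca
Klrb1b, chr6:128826316-128826565, minus strand: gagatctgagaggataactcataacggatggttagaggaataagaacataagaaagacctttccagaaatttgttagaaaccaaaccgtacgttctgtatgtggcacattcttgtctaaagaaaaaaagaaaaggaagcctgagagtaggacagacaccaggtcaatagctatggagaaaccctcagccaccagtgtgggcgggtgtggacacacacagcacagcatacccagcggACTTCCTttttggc
Eomes, chr9:118477939-118478188, plus strand: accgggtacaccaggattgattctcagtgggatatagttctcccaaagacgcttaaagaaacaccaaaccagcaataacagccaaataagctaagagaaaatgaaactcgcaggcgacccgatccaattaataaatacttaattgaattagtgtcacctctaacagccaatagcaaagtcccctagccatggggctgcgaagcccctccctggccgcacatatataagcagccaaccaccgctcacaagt
The RUNX letters stood in these 4 of 9 windows (Ncr1, Klrk1, Gzma and Gzmb), against 4.46% of 27025 windows of the same length, one per RefSeq gene. The ETS letters stood in 2 (Prf1 and Klrb1b) against 7.77%, and the T-box letters in 1 (Nkg7) against 3.31%. Klrb1c and Eomes held none of them. A match describes the letters in the window and is no binding site.

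Ncr1 (chr7:4337724-4345164, plus strand, GRCm38 with the GENCODE annotation, as are the positions that follow) encodes NKp46, an activating receptor. Its 4 D2.1 tumors in BALB/c mice were at 17.8, 20.2, 24.7 and 25.3 CPM. The 5 D2.1 tumors in SCID-beige mice were at 8.17, 9.92, 4.90, 4.30 and 10.8 CPM, all below the lowest BALB/c tumor. The difference was 2.95-fold (log2 1.56 ± 0.29 SE, adjusted p = 0.0305, edgeR). This call was lost without any 1 of 5 libraries: BALB/c replicate 1, 3 or 4 (adjusted p = 0.0930, 0.0965 and 0.114) or SCID-beige replicate 1 or 3 (0.0742 and 0.0628), with log2 fold changes of 1.43 to 1.63. A fit of all 18 tumors together gave log2 1.53 with an adjusted p of 0.259.

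In D2A1 tumors Ncr1 lay near the floor of 3 counts. The BALB/c hosts gave 8, 0, 3 and 18 counts and the SCID-beige hosts 9, 0, 7, 0 and 0 counts, and the hosts overlapped. D2.1 tumors exceeded D2A1 tumors by log2 5.69 ± 0.64 SE in BALB/c (adjusted p = 0.0001, edgeR) and by 5.08 ± 0.80 in SCID-beige mice (adjusted p = 0.000298). With so few counts in D2A1 tumors, the size of both values depends on the prior count of the fit.

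Klrk1 (chr6:129610323-129623864, minus strand) encodes NKG2D, an activating receptor of NK cells and CD8+ T cells for stress-induced ligands. D2.1 tumors in BALB/c mice were at 13.2, 17.8, 24.2 and 21.4 CPM and those in SCID-beige mice at 11.4, 10.3, 5.47, 4.96 and 14.0 CPM. The hosts overlapped at 1 library each, and the difference did not pass (log2 1.08 ± 0.32 SE, adjusted p = 0.184, edgeR), though DESeq2 called it (adjusted p = 0.0441). D2A1 tumors in BALB/c mice were at 8.58, 2.97, 3.08 and 10.3 CPM and in SCID-beige mice at 0.963, 1.25, 2.65, 0.804 and 0.568 CPM. These groups did not overlap, and the log2 difference of 2.33 ± 0.52 SE had an adjusted p of 0.0572 (edgeR), with a range of 0.000606 to 0.514 over its 17 alternatives. Among the genes that passed between lines, Klrk1 had the smallest differences, log2 1.62 ± 0.42 in BALB/c (adjusted p = 0.0139) and 2.89 ± 0.45 in SCID-beige mice (adjusted p = 0.000284).

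Klrd1 (chr6:129591782-129598775, plus strand) encodes CD94, the partner chain of the NKG2 receptors. It was at 5.63, 8.80, 15.2 and 7.52 CPM in BALB/c tumors of D2.1 and at 5.10, 10.0, 4.09, 1.49 and 7.94 CPM in those of SCID-beige mice, with overlap (log2 0.73 ± 0.47 SE, adjusted p = 0.704, edgeR). D2A1 tumors were at 0.242 to 2.26 CPM in BALB/c and 0.0631 to 0.697 CPM in SCID-beige mice. The line difference was log2 3.06 ± 0.68 in BALB/c (adjusted p = 0.00608) and 4.12 ± 0.68 in SCID-beige mice (adjusted p = 0.000436).

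Klrb1b (chr6:128813706-128826331, minus strand) encodes NKR-P1B, an inhibitory receptor for the ligand Clr-b, the product of Clec2d. D2.1 tumors were at 26.9, 15.3, 20.8 and 21.9 CPM in BALB/c mice and at 16.2, 34.1, 19.4, 33.0 and 23.8 CPM in SCID-beige mice. Cultured D2.1 cells were at 22.9, 23.3 and 19.4 CPM, scaled separately, inside the range of both tumor groups. Per transcript length (FPKM, fragments per kilobase scaled to the library size) the cultures had a mean of 9.35. The D2.1 tumors had means of 17.1 in BALB/c and 20.1 in SCID-beige mice, from a length of 1227 bases. Scaled by library total alone the cultures were at a mean of 20.8 CPM, so their FPKM rests on a longer length. Culture and tumor FPKM of Klrb1b therefore cannot be set against each other. Whether the counts cover different exons as well was not tested. The host difference was -0.22 ± 0.26 SE on the log2 scale (adjusted p = 0.879, edgeR), the only negative value among the 10 genes. D2A1 tumors in BALB/c mice were at 2.38, 0.557, 1.15 and 2.55 CPM and in SCID-beige mice at 0.138, 0.486, 0.349, 0.186 and 0.189 CPM. The D2A1 hosts did not overlap, but the gene failed the filter on low counts there, and with no filter its adjusted p was 0.043 at log2 2.61. D2.1 exceeded D2A1 tumors by log2 3.67 ± 0.44 in BALB/c (adjusted p = 0.000148) and by 6.53 ± 0.38 in SCID-beige mice (adjusted p = 4.97e-08), the largest line difference of the 10 genes in SCID-beige mice. Cultured D2A1 cells were at 0.865, 0.794 and 0.266 CPM, so the lines stood apart in culture as well. How much of the line difference in tumors came from the tumor cells was not tested.

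Klrb1c (chr6:128778485-128789215, minus strand) lies beside Klrb1b on the same strand and encodes the NK1.1 receptor NKR-P1C, an activating receptor. D2.1 tumors were at 5.52, 10.8, 10.4 and 7.59 CPM in BALB/c mice and at 9.40, 6.93, 2.82, 2.51 and 11.6 CPM in SCID-beige mice, against 4.74, 4.78 and 3.11 CPM in cultured D2.1 cells. Every BALB/c tumor lay above every culture, whereas the SCID-beige tumors overlapped it, and the hosts overlapped each other (log2 0.40 ± 0.44 SE, adjusted p = 0.869, edgeR). The 9 D2A1 tumors had 0 to 16 counts, and cultured D2A1 cells had 5, 0 and 0. The line difference in tumors was log2 4.73 ± 0.73 in BALB/c (adjusted p = 0.000795) and 5.56 ± 0.79 in SCID-beige mice (adjusted p = 0.000136). As for Klrb1b, the lines stood apart in culture too.

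Counts of this pair carry a limit of annotation. Of the 2322 distinct 50-base words in the annotated transcripts of Klrb1b, 27.2% also occur in transcripts of other genes, and of the 3003 of Klrb1c 17.0% do. Most of them fall in Gm44511, a read-through gene on the same strand whose exons overlap both, and 74 are common to Klrb1b and Klrb1c. Gm44511 had 0 to 28 counts in tumors and was not among the genes counted in cultured cells. Of the other members only Eomes shared such words, 2.1% of 4150, and the antisense gene Gm33460, which overlaps it, had 0 to 27 counts in tumors. Whether counting used strand is not given in the sources used here, so reads of Eomes and Gm33460 cannot be told apart.

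The genes around Klrb1b were looked up in the same libraries, a choice made after the culture counts were seen. Within 300 kb to either side lie 13 protein-coding genes including Gm44511, among them Klrb1a, Klrb1f and several Clec2 genes of the NK gene complex. In cultured D2.1 cells Klrb1b and Klrb1c were the members of this window with more than 4 counts in any library. Klrb1f, an activating relative, had 0 counts in all 3 of these cultures, and 72 to 98 counts in BALB/c tumors of D2.1 and 6 to 94 in those of SCID-beige mice. Klrb1a likewise had 0 counts in culture and 15 to 36 and 7 to 27 counts in the same tumor groups. These neighbors were thus seen in D2.1 tumors and not in the cultured line, unlike Klrb1b and Klrb1c.

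**Figure D3:**
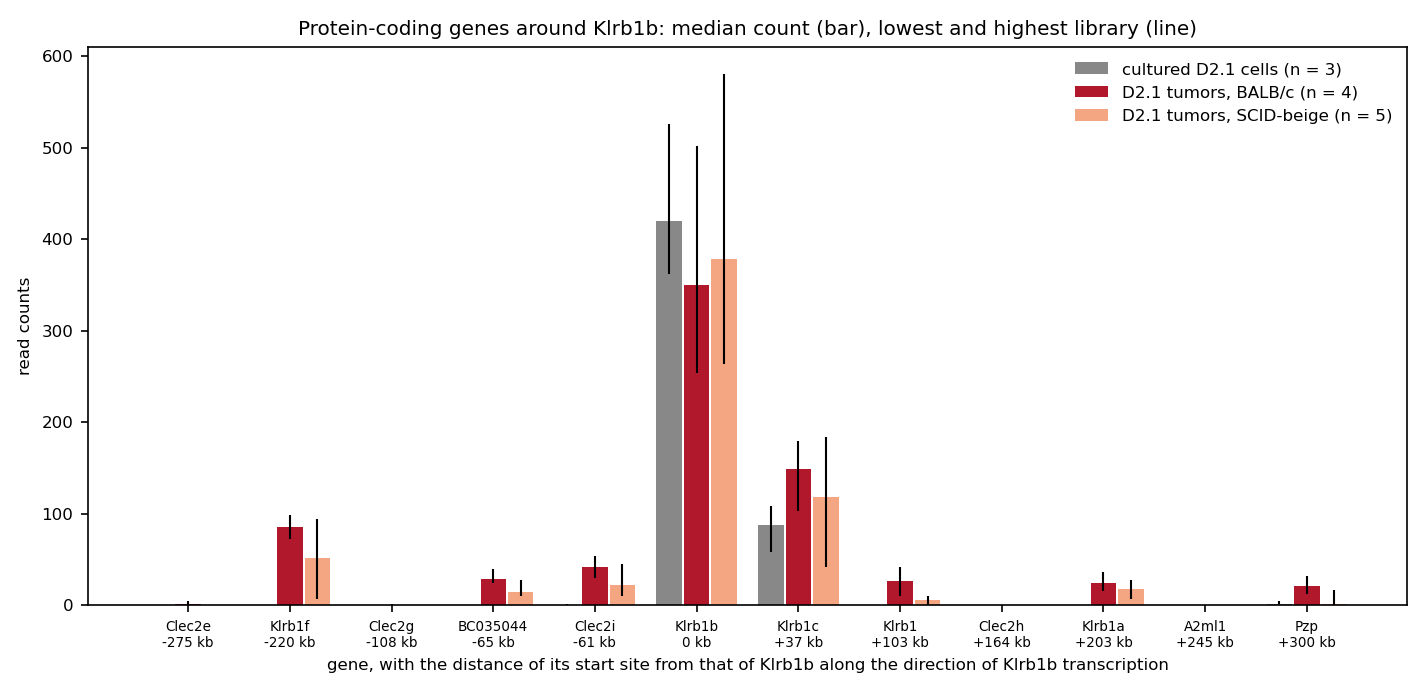
Read counts (vertical axis, bars at the median, lines from the lowest to the highest library) of the protein-coding genes around Klrb1b, in order along the chromosome with the distance between start sites. Cultured D2.1 cells (grey) hold Klrb1b at 362 to 526 and Klrb1c at 58 to 108 counts and at most 4 counts of any neighbor, while tumors (red and orange) also hold Klrb1f and Klrb1a. Gm44511 is not drawn.

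Eomes (chr9:118478212-118486132, plus strand) encodes the T-box transcription factor eomesodermin, which directs NK cell maturation and effector CD8+ T cells and also acts in early embryonic tissue. It was at 14.0, 17.2, 27.7 and 17.3 CPM in BALB/c tumors of D2.1 and at 12.5, 15.3, 4.67, 9.91 and 13.4 CPM in those of SCID-beige mice. D2A1 tumors were at 19.5, 10.9, 16.1 and 16.7 CPM in BALB/c and at 10.3, 16.6, 11.7, 6.80 and 13.5 CPM in SCID-beige mice. The 4 tumor groups overlapped, and the line difference was log2 0.28 ± 0.26 SE in BALB/c (adjusted p = 0.457, edgeR) and -0.08 ± 0.31 in SCID-beige mice (adjusted p = 0.873). Without D2.1 SCID-beige replicate 3 or D2A1 SCID-beige replicate 2 the latter turned to 0.12 and 0.04.

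The overlapping tumor levels of Eomes stood on culture levels that differed. Cultured D2.1 cells were at 1.31, 1.24 and 0.965 CPM, and the mean of the D2.1 tumors was 16.3 times that mean in BALB/c and 9.54 times in SCID-beige mice. Cultured D2A1 cells were at 32.5, 32.3 and 27.3 CPM, and the D2A1 tumors were at 0.514 and 0.384 times that mean, each tumor below each culture. These ratios set separately scaled tables side by side and were not tested.

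Prf1 (chr10:61297833-61304680, plus strand), the gene for perforin, was at 21.1, 19.1, 27.1 and 21.3 CPM in BALB/c tumors of D2.1 and at 12.9, 16.1, 5.53, 9.67 and 14.8 CPM in those of SCID-beige mice. Each BALB/c tumor exceeded each SCID-beige tumor, and the log2 difference of 0.93 ± 0.29 SE did not pass (adjusted p = 0.204, edgeR). D2A1 tumors had 22, 2, 3 and 78 counts in BALB/c and 6, 8, 4, 0 and 4 counts in SCID-beige mice, where BALB/c replicate 4 stood highest. Line differences were log2 3.89 ± 0.80 in BALB/c (adjusted p = 0.00418) and 5.28 ± 0.55 in SCID-beige mice (adjusted p = 8.65e-06).

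Gzma (chr13:113093825-113100981, minus strand) and Gzmb (chr14:56258838-56262260, minus strand) encode granzymes with trypsin-like and aspartate-directed cleavage. Gzma was at 13.1, 14.0, 16.5 and 19.8 CPM in BALB/c tumors of D2.1 and at 12.1, 17.7, 3.23, 14.1 and 12.6 CPM in those of SCID-beige mice. Gzmb was at 11.2, 14.95, 10.4 and 13.8 CPM against 15.8, 11.03, 7.78, 10.7 and 13.2 CPM. For both genes the hosts overlapped, with log2 differences of 0.43 ± 0.38 SE (adjusted p = 0.819) for Gzma and 0.14 ± 0.25 (adjusted p = 0.933, edgeR) for Gzmb. In D2A1 tumors Gzma ranged from 0 to 1.80 CPM and Gzmb from 0.0619 to 3.54 CPM over both hosts, which overlapped for each. D2.1 exceeded D2A1 tumors in BALB/c mice by log2 4.07 ± 0.73 for Gzma (adjusted p = 0.00189) and 2.80 ± 0.45 for Gzmb (adjusted p = 0.000934). In SCID-beige mice the differences were 3.78 ± 0.44 (adjusted p = 2.51e-05) and 3.95 ± 0.52 (adjusted p = 7.02e-05).

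Nkg7 (chr7:43437073-43438249, plus strand) encodes a granule membrane protein that takes part in granule release. It was at 20.0, 26.5, 55.2 and 45.5 CPM in BALB/c tumors of D2.1 and at 15.6, 20.8, 5.93, 8.06 and 15.2 CPM in those of SCID-beige mice. Only the highest SCID-beige tumor reached the lowest BALB/c tumor, and the log2 difference of 1.51 ± 0.38 SE did not pass (adjusted p = 0.101, edgeR), though DESeq2 called it (adjusted p = 0.00430). D2A1 tumors were at 4.12, 0.867, 1.63 and 4.44 CPM in BALB/c and 0.550, 1.39, 0.558, 0.124 and 0.315 CPM in SCID-beige mice (log2 2.24 ± 0.65, adjusted p = 0.152). Line differences were log2 3.73 ± 0.52 in BALB/c (adjusted p = 0.000438) and 4.48 ± 0.54 in SCID-beige mice (adjusted p = 3.22e-05).

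Levels of different genes were compared per transcript length, as FPKM, fragments per kilobase scaled to the library size. In BALB/c tumors of D2.1 Nkg7 stood first at 51.8 ± 22.8 FPKM (SD, n = 4), followed by Klrb1b at 17.1 ± 4.12, Gzma at 16.6 ± 2.77 and Ncr1 at 14.6 ± 2.18, neighbors that overlapped within their SD. In D2.1 tumors of SCID-beige mice Klrb1b stood first at 20.1 ± 6.18 FPKM (n = 5), within the spread of Nkg7 at 18.3 ± 8.33, and Ncr1 stood eighth at 5.01 ± 1.92. In D2A1 tumors Eomes stood first in both hosts, at 6.07 ± 1.52 and 4.39 ± 1.23 FPKM, and in SCID-beige hosts no other member exceeded a mean of 0.921 FPKM.

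The 10 genes did not vary together in all tumors. Over the 9 D2.1 tumors, the log2 CPM of Prf1, Eomes, Nkg7 and Klrk1 followed the mean z score of the other members with Pearson r of 0.96, 0.95, 0.93 and 0.91 (Spearman rho 0.90, 0.98, 0.95 and 0.88). Gzmb followed it less closely (r = 0.51, rho = 0.20), and Klrb1b did not (r = -0.22, rho = -0.13). Over the 9 D2A1 tumors Klrb1b had r = 0.83 and rho = 0.62, and Eomes r = 0.68 and rho = 0.73. The 9 tumors of a line come from both hosts, so these values also hold the difference between hosts. They are descriptions with no test. Of the D2.1 tumors in SCID-beige mice, replicates 3 and 4 were the lowest for 5 and 4 of the 10 genes, and in D2A1 of BALB/c hosts replicates 1 and 4 were the highest for 4 and 6.

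The ratio of Ncr1 to Ptprc set the NK receptor against all leukocytes. Per 100 CPM of Ptprc, D2.1 tumors held 12.8 to 38.1 CPM of Ncr1 in BALB/c and 5.70 to 16.9 CPM in SCID-beige mice, and D2A1 tumors held 0 to 1.76 and 0 to 5.23 CPM. Both D2.1 groups thus lay above both D2A1 groups. Ptprc itself was at 64.8 to 158 CPM in D2.1 and 32.1 to 74.6 CPM in D2A1 tumors of BALB/c mice (log2 0.85, adjusted p = 0.0677, edgeR), and at 29.7 to 96.7 and 11.8 to 35.3 CPM in SCID-beige mice (log2 1.24, adjusted p = 0.0128). Between hosts the log2 ratio of Ncr1 to Ptprc was -2.10 ± 0.78 (SD, n = 4) in BALB/c and -3.03 ± 0.65 (SD, n = 5) in SCID-beige tumors of D2.1. That difference of 0.93 did not pass an exact two-sided permutation test (p = 0.119, adjusted over 4 ratios 0.238).

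The ratio of Gzmb to Ncr1 in D2.1 tumors differed between hosts without overlap. The log2 ratio was -0.80 ± 0.34 (SD, n = 4) in BALB/c mice, from -1.23 to -0.43, and 0.66 ± 0.47 (SD, n = 5) in SCID-beige mice, from 0.15 to 1.29. The difference of -1.46 had an exact two-sided permutation p of 0.00794, the smallest that the 126 arrangements allow, and 0.0317 after adjustment over the 4 ratios. In D2A1 tumors the ratios overlapped, with a difference of 0.56 (exact permutation p = 0.476, adjusted 0.635). The plot of Gzmb against Ncr1 shows D2.1 tumors of both hosts at like Gzmb and unlike Ncr1.

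**Figure D4:**
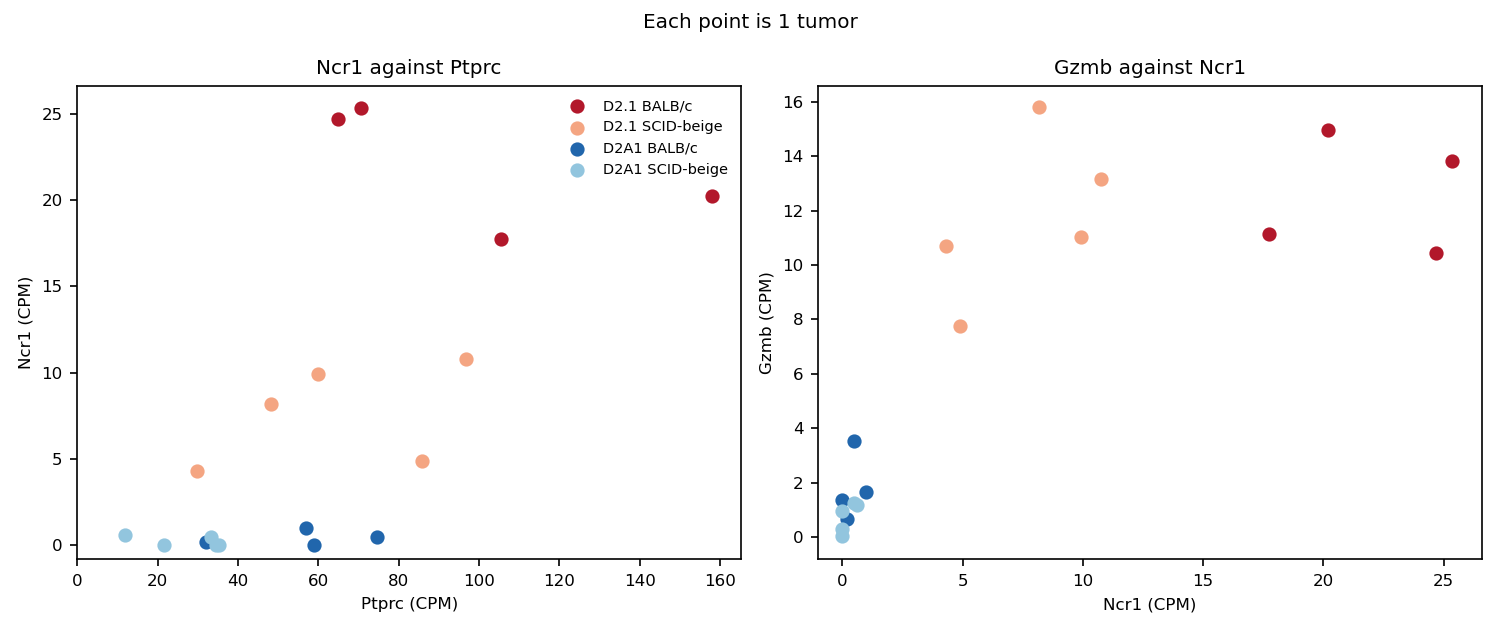
Ncr1 against Ptprc (left) and Gzmb against Ncr1 (right) in CPM, 1 point a tumor, colored by line and host. D2A1 tumors (blue) stay at or below 1.0 CPM of Ncr1 over 11.8 to 74.6 CPM of Ptprc, and D2.1 tumors (red and orange) span 4.30 to 25.3 CPM of Ncr1 at 7.78 to 15.8 CPM of Gzmb.

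Other genes of the NK and cytotoxic program were described from 6 lists with 74 genes in all. Toward D2.1 in BALB/c mice, 39 of the 64 tested genes passed and 4 passed toward D2A1, and in SCID-beige mice 24 and 7 of 48 did. Of all genes tested, 16.8% passed toward D2.1 and 15.8% toward D2A1 in BALB/c mice, and 17.2% and 14.8% did in SCID-beige mice. The 7 of 48 toward D2A1 are about the share of all genes, and the counts between lines of each list below read against the same 4 shares. Between hosts 2 of 62 passed in D2.1 tumors and 1 of 41 in D2A1 tumors, all toward BALB/c. Of all genes tested, 0.871% and 0.906% passed toward BALB/c in D2.1 and D2A1 tumors. The counts between hosts of the lists below read against these shares. The lists were chosen with earlier results of these data known. Many of the genes are not particular to lymphocytes. In every library of cultured D2.1 cells, 1 of 22 receptor genes, 2 of 9 adaptors, 10 of 14 transcription factors and growth receptors, 4 of 12 granule genes, 8 of 9 genes of granule release and 1 of 7 cytokines exceeded 3 counts. In cultured D2A1 cells 1, 1, 8, 3, 8 and 1 did. How much of the tumor levels of these genes came from the tumor cells was not tested.

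Of 22 further NK receptor genes, 16 were tested in BALB/c mice and 15 were higher in D2.1 tumors (median log2 3.53). Cd96, which binds the same ligand as Tigit, led at log2 5.46, from a mean of 0.203 CPM in D2A1 to 9.29 CPM in D2.1 tumors, and Klrb1f followed at 5.34. In SCID-beige mice 5 of 6 tested were higher, led by Crtam at log2 5.38. The sixth, Tigit, an inhibitory receptor, was lower, at log2 -1.09 with 2.74 CPM in D2.1 and 5.86 CPM in D2A1 tumors. Tigit too was present in culture, at 177 to 462 counts in D2A1 and 11 to 15 counts in D2.1 cells. Cd96 also passed between hosts in D2.1 tumors (log2 2.50, adjusted p = 0.00551, edgeR), with 9.29 CPM in BALB/c and 1.67 CPM in SCID-beige mice, and it is a gene of T cells as well.

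Of 10 signaling adaptors, 6 were higher in BALB/c tumors of D2.1 and 3 of 9 in SCID-beige mice. Sh2d1a led in BALB/c mice at log2 3.34 and Hcst, the DAP10 adaptor of NKG2D, in SCID-beige mice at 1.39. Zap70, a kinase of T and NK cell receptors, passed between hosts in D2.1 tumors (log2 1.92, adjusted p = 0.0249, edgeR). Of 14 transcription factors and growth receptors, 9 were higher and 1 lower in BALB/c and 7 of 12 higher and 2 lower in SCID-beige mice. Il2rb, the IL-2 and IL-15 receptor chain on which NK cells depend, was higher by log2 3.98 in BALB/c mice, at 126 against 7.95 CPM. Tbx21, the T-box factor T-bet, was higher by 7.48 in SCID-beige mice, with a mean of 0.0124 CPM in D2A1 tumors, so that its size depends on the prior count. Il2rb had at most 19 counts and Tbx21 0 counts in culture. Il12rb1 was lower in D2.1 tumors of both hosts (log2 -0.98 and -1.21), whereas in culture it was at a mean of 34.1 CPM in D2.1 and 11.1 CPM in D2A1 cells.

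Of 12 further granule genes, 4 of 9 tested were higher and 2 lower in BALB/c tumors of D2.1, and 4 of 7 higher and 3 lower in SCID-beige mice. Gzmc was higher in D2.1 tumors by log2 4.63 in BALB/c and 3.14 in SCID-beige mice, and Ctsw, a protease of cytotoxic lymphocytes, by 3.80 and 3.39. Gzmd and Gzme, granzyme genes close to Gzmb, went the other way. Gzmd was at a mean of 0.0424 CPM in D2.1 and 1.63 CPM in D2A1 tumors of BALB/c mice and at 0.171 and 1.44 CPM in SCID-beige mice. Gzme was at 0 counts in D2.1 and 1.69 CPM in D2A1 tumors of BALB/c mice and at 0.0369 and 2.1 CPM in SCID-beige mice, and all 4 differences passed. In culture Gzme had 22 to 32 counts in D2.1 and 0 to 12 counts in D2A1 cells. Of the 9 genes for granule release and death ligands, 3 were higher and 1 lower in D2.1 tumors of each host, with Fasl, the ligand of the death receptor Fas, at log2 3.76 and 4.52. Lyst, the gene mutated in the beige strain, and Prkdc did not pass between hosts in either line, and since tumor cells carry both intact they do not check the host. Of 7 effector cytokines, Xcl1 (log2 4.27 and 4.48) and Ccl5 (2.54 and 1.69) were higher in D2.1 tumors of BALB/c and SCID-beige mice. Ccl5 had 79 to 319 counts in cultured D2.1 and 13 to 27 in cultured D2A1 cells, and Xcl1 at most 1.

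Ligand genes of these receptors were read in the same bulk tumors, and which cells made their transcripts was not tested. Of 14 genes, 10 had a row and 8 were tested. Clec2d, the ligand gene of Klrb1b, was higher in D2.1 tumors by log2 2.15 in BALB/c (53.1 against 12 CPM) and 2.88 in SCID-beige mice (52.5 against 7.11 CPM). It was already at a mean of 16.2 CPM in cultured D2.1 cells and 0.721 CPM in cultured D2A1 cells, so cultured D2.1 cells held transcripts of both the receptor and its ligand. H60b, a ligand gene of NKG2D, was higher in D2.1 tumors by log2 3.85 and 4.30. Pvr and Nectin2, ligands of the Cd226, Cd96 and Tigit receptors, were lower in D2.1 tumors, by log2 -1.23 and -1.84 in BALB/c and -0.70 and -1.69 in SCID-beige mice.

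Of 10 cytokines and attractants that support NK cells, 3 of 7 tested in BALB/c and 5 of 7 in SCID-beige mice were higher in D2.1 tumors. Cx3cl1, the fractalkine ligand of CX3CR1, was higher by log2 3.38 and 3.23, and cultured cells carried it at 10223 to 12384 counts in D2.1 and 1689 to 1938 in D2A1. Il15, the cytokine that NK cells need to survive, was higher by 1.95 in BALB/c and 2.17 in SCID-beige mice, with 98 to 140 counts in D2.1 and 13 to 25 in D2A1 cultures. Between hosts Cxcl9, an interferon-gamma-induced attractant of CXCR3+ cells, was higher in BALB/c mice in both lines, by log2 2.61 in D2.1 and 4.01 in D2A1 tumors (adjusted p = 0.00134 in each line, edgeR).

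Marker lists of other leukocytes were read in the same tumors, and they differed from each other in how they stood between the groups. The summed level of 12 T cell markers was 129 to 348 CPM in BALB/c and 21.3 to 53.1 CPM in SCID-beige tumors of D2.1, and 14.6 to 44.8 and 5.99 to 9.94 CPM in those of D2A1. Between hosts 10 of the 12 were higher in BALB/c tumors of D2.1 and 6 of 9 tested in those of D2A1, and between lines 12 of 12 were higher in BALB/c tumors of D2.1 and 4 of 5 tested, with 1 lower, in those of SCID-beige mice. In SCID-beige tumors Cd3e was at 0 to 7 counts and Cd8a at 0 to 7 counts, but not all T cell markers were near the floor. Lck was at a mean of 16.0 CPM in D2.1 tumors of SCID-beige mice. In that host Cd4 was at 7.67 CPM in D2.1 and 1.64 CPM in D2A1 tumors, and Trbc1 at 6.76 and 0.207 CPM. Trac went the other way, at 0.419 and 3.06 CPM. The summed gamma delta T cell markers were 12.7 to 39.2, 2.09 to 13.2, 0.929 to 3.5 and 0.695 to 2.06 CPM in the same order of groups. Mast cell markers, which include granule proteases, were at 21.5 to 51.0, 8.58 to 74.5, 15.3 to 22.2 and 4.79 to 12.4 CPM. Between lines 0 of 5 tested passed in BALB/c mice (edgeR), with 1 at an unadjusted p under 0.05, as had 6402 of all 14953 genes tested. In SCID-beige mice 4 of 5 were higher in D2.1 tumors. B cell markers summed to 71.3 to 334, 22 to 70.1, 26.1 to 53.0 and 5.09 to 18.5 CPM, with 3 of 3 tested higher in D2.1 tumors of BALB/c and 2 of 2 in those of SCID-beige mice, and 1 of 4 higher in BALB/c hosts of D2.1 tumors. Summed myeloid markers ran from 1108 to 2408 CPM over the 4 groups. The part of T cells in the member levels was not tested in tumors of either host.

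The genes most like the members over all 18 tumors were, of 13507 protein-coding genes compared by Pearson r of log2 CPM with the mean z score of the 10, Tapbp (0.97), Il2rb, Pglyrp2, Ms4a4b, Txk, Lck, Prkcq, Plbd1, Cd7 and Phactr1 (0.95). These values hold the difference between lines. Within the 9 D2.1 tumors the r of the 10 genes ran from 0.81 for Plbd1 to 0.98 for Phactr1, and within the 9 D2A1 tumors from 0.56 for Phactr1 to 0.87 for Tapbp. Those most like Ncr1 alone were Efs, Klra3, Gata3, Dkk3 and Tapbp (r of 0.97 to 0.96 over 18 tumors), of which Klra3 is an NK receptor gene of the Ly49 family. Within D2.1 and D2A1 tumors Klra3 had r of 0.90 and 0.71, Efs 0.89 and 0.80, and Gata3 0.90 and 0.72. Dkk3 had 0.89 and 0.51 and Tapbp 0.85 and 0.54. All values within a line still hold the difference between hosts.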

How the data were processed

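Total RNA of individual tumors and of cultured cells was sequenced, and the authors deposited raw read counts and FPKM values per gene, in a tumor table and a cell table that were treated separately. The submitters' notes name STAR and mm10, and the counting program and strand setting are not given in the sources used here. The deposited FPKM of the tumors equaled count over length and library total for 100% of genes (within 1%). No column was left unmapped. The members and lists were chosen with earlier results of these data known. Counts were tested with edgeR 4.0.16 (quasi-likelihood, TMM, its filter on low counts, its default prior count, R 4.3.3) between 2 groups at a time, and over all 18 tumors for the difference of host effects, with Benjamini-Hochberg adjustment over all genes tested. A prior count of 2 was used for log2 CPM, as in the ratios and correlations. CPM values are TMM-normalized. Named genes were the members, for each list the 2 largest and 2 smallest log2 fold changes past the threshold (shown in part), and the 10 genes most like the members and 5 most like Ncr1. The SE of an edgeR fold change is its absolute log2 value over the square root of its F statistic, not an error taken from the fit. Ratios were compared by exact permutation tests. Alternatives were DESeq2 1.42.0, limma 3.58.1 on log2(FPKM + 0.1 or 1), other scaling and filters, 1 fit of all tumors, a replicate block and each tumor left out. The count test was tested on simulated data. Nothing states that the cultured replicates were separate cultures. Between 24 libraries, no replicate pair of the 38 compared agreed within sampling noise.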

Additional observations from a re-analysis of the deposited data

Results flagged for a closer look

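Klrb1c in D2A1 tumors of SCID-beige mice was flagged because 1 tumor stood apart from the rest of its group. Replicate 2 was at 0.486 CPM, from 7 counts, and the other 4 tumors were at 0 to 0.124 CPM. Of the 40 combinations of gene and tumor group examined this was the only one that stood apart in this way, and chance gives about 1 in 20. The value rests on a handful of reads, and its cause was not tested.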

How the results depend on the processing

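The 9 of 10 genes that differed between lines passed in each host under every alternative run, and no count of genes over the whole table moved by more than 1.5 times there. The host results depended on the processing. In D2.1 tumors 1 of the 10 genes passed, against 3 with DESeq2 and 0 with 1 fit of all tumors, with 0 to 1 when a tumor was left out, while the genes called over the whole table were 133, 590 with DESeq2, 275 with no filter, 261 with 1 fit and 26 to 314 with a tumor left out. In D2A1 tumors 0 passed, against 3 with DESeq2, 2 with no filter, 2 with 1 fit and 0 to 2 with a tumor left out, and genes called were 170, 517 with DESeq2, 108 and 112 on log2 FPKM with pseudocounts of 0.1 and 1, and 27 to 172 with a tumor left out. For the difference of host effects 0 of 10 passed, against 1 with DESeq2, 1 with no filter and 0 to 1 with a tumor left out. Genes called there were 3, 104 with DESeq2, 6 with its size factors, 7 with no filter, 44 and 54 on log2 FPKM, and 0 to 12 with a tumor left out.

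Replicate numbers were shared between groups, and nothing states what a number marks. The deviations of same-numbered tumors had r of -0.183 to 0.159 and -0.374 to -0.159 between hosts and -0.142 to 0.263 between lines in SCID-beige mice. Between lines in BALB/c mice all 4 were positive, 0.0899, 0.464, 0.255 and 0.319, and 1 of them missed the 0.1 asked of every pair, so the numbers were not taken to pair the tumors there either. In that comparison 3 of 8 tumors correlated best with the tumor of their own number, against 6 of 10 between lines in SCID-beige mice and 1 and 0 of 8 between hosts. With the replicate block, 0 of the 10 genes passed between hosts in either line, 9 passed between lines in each host and 0 for the difference, and genes called were 14, 0, 7116 (4868 without the block), 5311 and 2.

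Signs turned for values near 0. The host effect on Gzma in D2A1 tumors, 0.13, was -0.53 with the replicate block, -0.56 and -0.038 on log2 FPKM, and ran from -0.40 to 0.51 with a tumor left out, below 0 without BALB/c replicate 1 or 4 (-0.40 and -0.28). The line effect on Eomes in SCID-beige mice, -0.08, ran from -0.25 to 0.12, above 0 without D2.1 replicate 3 or D2A1 replicate 2 (0.12 and 0.04). The difference of host effects on log2 FPKM with a pseudocount of 1 was 0.29 for Klrb1c, 0.042 for Klrd1, 0.42 for Prf1 and 0.095 for Nkg7. With a tumor left out it ran from -0.13 (without D2A1 BALB/c replicate 3) to 0.79 for Gzma, from -2.15 to 0.55 for Klrb1c and from -1.78 to 0.10 for Prf1 (both highest without D2A1 BALB/c replicate 4), and from -0.25 (without D2A1 SCID-beige replicate 1) to 1.53 for Ncr1. The Ncr1 to Ptprc difference in D2A1 tumors, -0.36, was 0.20 with a prior count of 0.5 and ran from -0.83 to 0.32 with a tumor left out, turning to 0.25 without BALB/c replicate 2. The ratios in the other cases ran from 0.66 to 1.22 (Ncr1 to Ptprc, D2.1), -1.59 to -1.31 (Gzmb to Ncr1, D2.1) and 0.05 to 1.03 (Gzmb to Ncr1, D2A1). The causes were not tested. Depth limits Ncr1 and Klrb1c in D2A1 tumors of both hosts and Klrb1b, Klrd1 and Prf1 in those of SCID-beige mice, with medians of 0 to 5.5 counts.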
